A study of Homo sapiens with 6 samples.

Results

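The RNA levels of the Mediator complex genes were followed in HGC27, an established line of human gastric cancer, with and without ARV-825. A row of the deposited expression table was taken as a member when its Ensembl ID named a protein-coding gene whose symbol is MED followed by a number, and CDK8, CDK19 and CCNC were added. The rule used no expression value and gave 33 of the 58735 genes of the table. The members were sorted into the modules of the complex: 7 head genes, 9 middle genes, the scaffold gene MED14, 9 tail genes and 7 genes of the dissociable kinase module. MED27, MED28, MED29 and MED30, which are placed either in the head or in the tail, were counted in the tail.

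Mediator carries signals from transcription factors bound at enhancers to RNA polymerase II at promoters. Its head and middle modules contact the polymerase, MED14 forms the backbone that holds the modules together, and the tail is the main landing site for activators. The kinase module, made of CDK8 or CDK19 with cyclin C, MED12 or MED12L, and MED13 or MED13L, binds the core reversibly and blocks its contact with the polymerase while it is bound. ARV-825 is a proteolysis-targeting chimera, a small molecule that brings the ubiquitin ligase cereblon to its target proteins so that they are degraded.

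Bulk RNA was sequenced from cells kept for 48 h with ARV-825 at 0.125 µM (n = 3) and from control cells at 0 µM (n = 3), for which the labels give no time of their own and which the labels call untreated and the study's methods call DMSO-treated. All 6 libraries came from the same cell line, and the labels do not say whether the 3 libraries of a group were separate cultures, so the spread between them may be technical. The values are FPKM, fragments scaled by exon length and by library size, which allow levels to be compared between genes. In bulk RNA, a lower level in every cell and fewer cells with the transcript cannot be told apart.

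The ARV-825 libraries held 14821971 to 15201942 fragments over genes and the control libraries 16626609 to 19145661. Genes of the mitochondrial genome took 9.84 to 12.0% of the fragments in ARV-825-treated cells and 5.62 to 6.24% in control cells, and with these genes left out of the scaling 11 Mediator genes were higher and 8 lower, in place of the 12 and 8 given below. The groups lay apart on the leading principal component, which took 90.6% of the variance. Epithelial markers (EPCAM, CDH1, KRT8, KRT18 and KRT19) summed to 0.549 to 0.738 FPKM in ARV-825-treated cells and 0 to 0.120 FPKM in control cells, with 0 of 5 genes at a mean of 1 FPKM, so the RNA of this carcinoma line nearly lacked epithelial markers in both groups. The mesenchymal marker sum, nearly all VIM, was 247 to 250 FPKM in ARV-825-treated cells and 267 to 279 FPKM in control cells. Blood markers summed to 0.269 to 0.417 FPKM in ARV-825-treated cells and 1.17 to 1.60 FPKM in control cells, gastric mucosa markers to at most 0.0197 FPKM and endothelial markers to at most 0.0257 FPKM in any library, and muscle and fibroblast markers, mostly COL1A1, to 27.4 to 31.0 FPKM in ARV-825-treated cells and 141 to 143 FPKM in control cells.

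ARV-825 was followed by unequal changes among the Mediator genes, in both directions. Of the 31 members with a mean of at least 1 FPKM, 12 were higher and 8 lower in ARV-825-treated cells at an adjusted p under 0.05 (limma on log2(FPKM + 1), Benjamini-Hochberg over 13442 genes), and 11 did not pass. MED17 and MED12L fell under the level filter and were not tested. The shares were 38.7% higher and 25.8% lower for the tested members, against 37% higher and 40.2% lower for the whole table by the same rule. MED19, MED15 and CDK19 had the largest increases, and MED22, MED8 and MED12 the largest decreases. The tested members had a median log2 fold change of 0.10, against -0.02 for all genes tested, and the median size of the change without regard to sign was 0.30 over the members and 0.49 over all genes tested.

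Few members passed a threshold of size. At an adjusted p under 0.05 and a fold change of log2(FPKM + 1) over 1 in size, 0 members were higher in limma, while 8.81% of all genes tested were, and 1 member, MED22, was lower, while 12.1% of all genes tested were. MED19, at 0.93, came nearest to the upper threshold, so the count of 0 was the same at an unadjusted p under 0.05, and MED19 had 0.91 in voom on fragments. MED19 lay close to the threshold, at 0.998 with 0.1 added in place of 1, 1.0045 with 0.01 added and 1.01 after quantile normalization. It passed both thresholds in the last 2 of these settings. In 14 of the tested members every ARV-825 value lay above every control value (38.5% of all genes tested), in 9 every ARV-825 value lay below every control value (41.6% of all genes tested), and in 8 the groups overlapped.

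**Figure D1:**
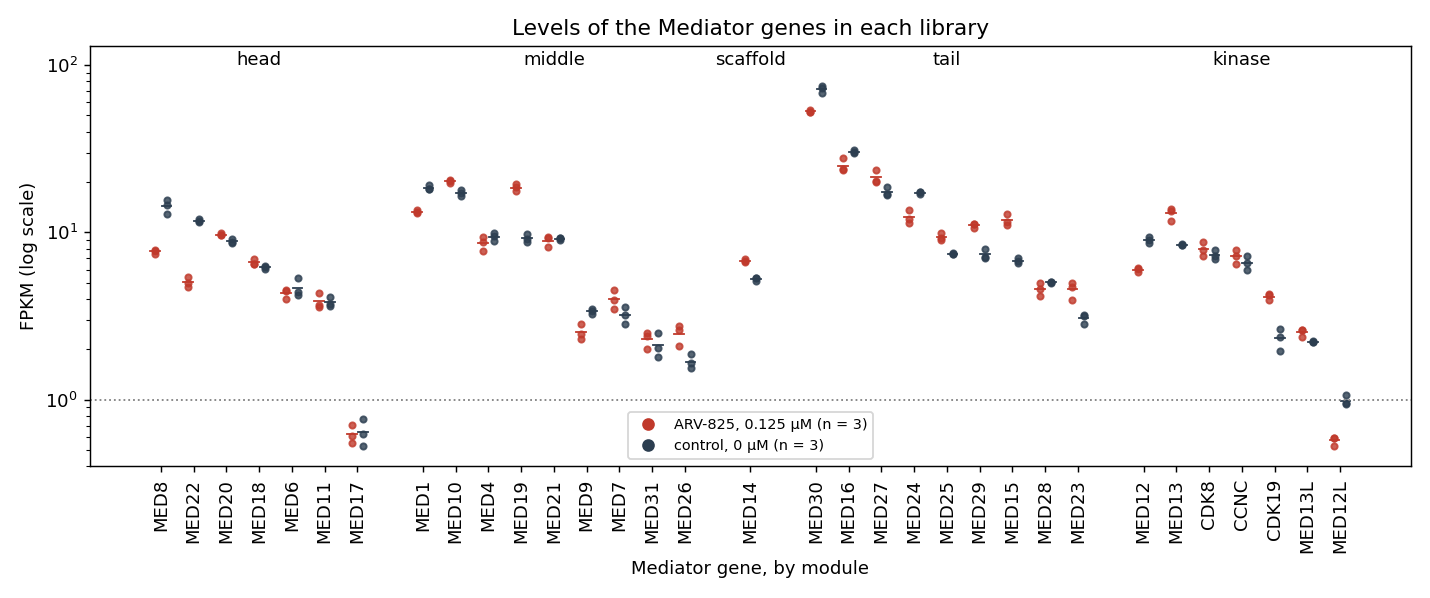
FPKM of the 33 Mediator genes by module on a log axis, with ARV-825 libraries (left point of each pair) and control libraries (right point), 3 libraries per group, 1 point per library, a short line at each group mean and a dotted line at the 1 FPKM filter. MED30 lies at 52.4 to 53.9 FPKM in ARV-825-treated cells and 68.4 to 75.1 FPKM in control cells, while MED17 and MED12L stay near or under 1 FPKM in all 6 libraries.

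The direction of many small changes depended on how libraries were scaled to each other. FPKM summed to 348808 to 360662 in ARV-825 libraries and 282667 to 294346 in control libraries. When each library was rescaled to TPM, with equal sums, the median of all genes moved to -0.31 on the log2 scale, and 5 members were higher and 15 lower, against 23.6% higher and 53.7% lower in the whole table. With the sums made equal without the genes of the mitochondrial genome, the median of all genes was -0.04. In that scaling 11 members were higher and 8 lower, against 4787 higher and 5573 lower of 13405 genes. MED19, MED15, MED29, MED13 and CDK19 were higher, and MED8, MED22, MED1, MED9, MED16, MED24, MED30 and MED12 lower, under the deposited scale and under each of 7 other scalings, voom on fragments among them. The scalings were not independent. TPM and equal FPKM sums divide by the same library sums, and fragment totals and voom by the same fragment totals. The other 7 members called higher, which were MED20, MED10, MED26, MED14, MED23, MED25 and MED27, lost that call in TPM, where MED20 was called lower. Taken relative to the median of all genes under each scaling, the 8 scalings gave 0.91 to 1.02 for MED19 and -1.20 to -1.03 for MED22 on the log2 scale, so those changes kept nearly the same size.

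**Figure D2:**
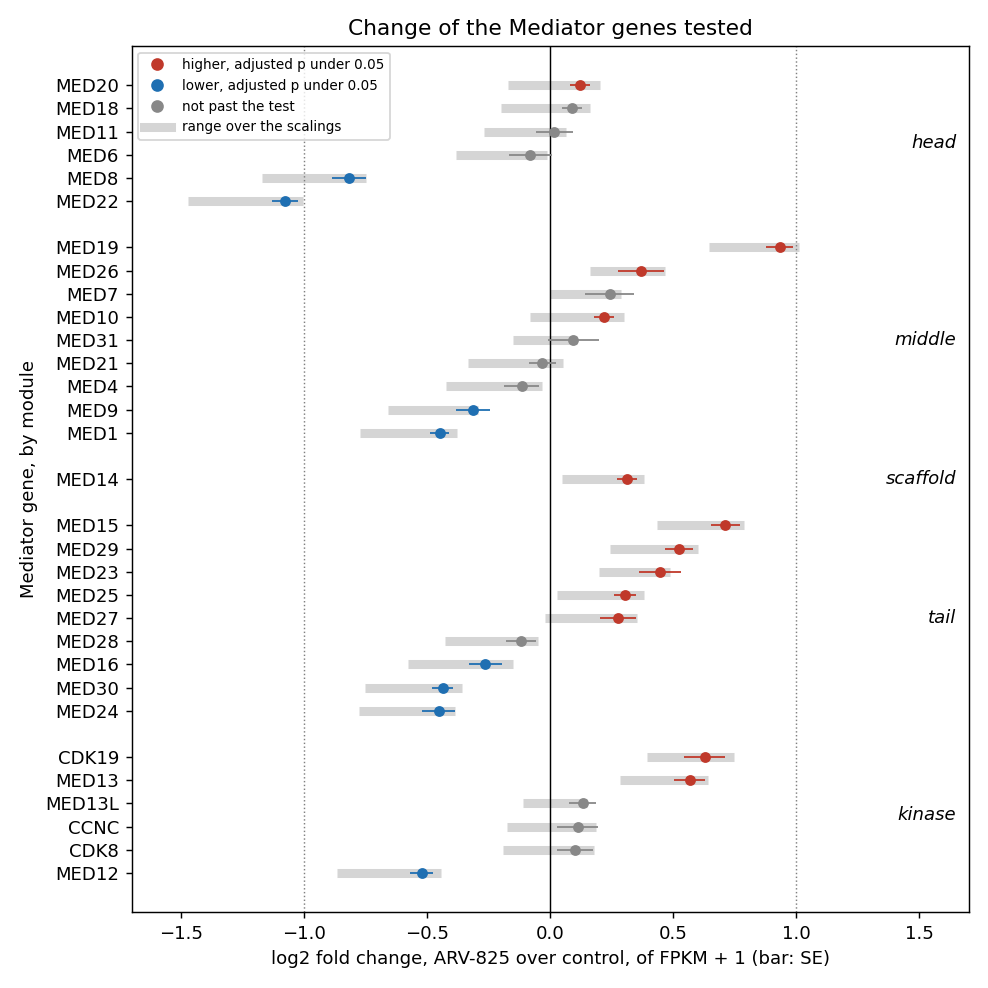
Log2 fold change (ARV-825 over control, on log2(FPKM + 1)) of the 31 tested Mediator genes by module, with bars of 1 SE from limma on 3 libraries per group and a grey line for the range over the deposited and 7 other scalings. MED19 at 0.93 and MED22 at -1.08 stand at the ends, and among the members called higher the grey lines of MED20, MED10 and MED27 cross 0.

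The promoters of the members with the largest changes are printed to show which common promoter elements lie next to genes that moved in opposite directions. They are RefSeq sequences of GRCh38.p14, from 250 bases before to 50 bases after the start that RefSeq gives, for the 2 largest increases (MED19 at chr11:57712166-57712465, minus strand, and MED15 at chr22:20507360-20507659, plus strand) and the 2 largest decreases (MED12 at chrX:71118346-71118645, plus strand, and MED24 at chr17:40054359-40054658, minus strand) among the 25 members with an entry. Capitals mark matches, on either strand, to CACGTG (E-box), GCATGCGC (NRF1-type), CCGGAAG (ETS-type), GGGCGG (GC box), TGACGTCA (CRE), AAGATGGC (YY1-type), CCAAT (the CCAAT box) or TATAAA (the TATA element).
MED19: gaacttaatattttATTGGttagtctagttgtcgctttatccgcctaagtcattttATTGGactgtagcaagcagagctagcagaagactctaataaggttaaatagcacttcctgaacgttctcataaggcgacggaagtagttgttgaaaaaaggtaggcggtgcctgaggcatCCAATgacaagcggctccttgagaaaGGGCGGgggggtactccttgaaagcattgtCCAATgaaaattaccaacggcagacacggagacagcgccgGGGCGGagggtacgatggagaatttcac
MED15: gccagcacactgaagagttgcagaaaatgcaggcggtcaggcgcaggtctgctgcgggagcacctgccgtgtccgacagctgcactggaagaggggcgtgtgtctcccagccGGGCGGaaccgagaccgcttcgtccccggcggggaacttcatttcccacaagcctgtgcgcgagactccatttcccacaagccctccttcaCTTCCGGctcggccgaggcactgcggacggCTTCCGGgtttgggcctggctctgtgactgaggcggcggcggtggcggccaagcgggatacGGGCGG
MED12: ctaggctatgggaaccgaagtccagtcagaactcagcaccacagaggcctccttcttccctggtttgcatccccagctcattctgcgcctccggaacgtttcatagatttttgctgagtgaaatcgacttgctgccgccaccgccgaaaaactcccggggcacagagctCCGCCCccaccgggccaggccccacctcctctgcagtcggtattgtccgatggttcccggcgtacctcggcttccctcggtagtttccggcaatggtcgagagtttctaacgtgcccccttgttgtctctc
MED24: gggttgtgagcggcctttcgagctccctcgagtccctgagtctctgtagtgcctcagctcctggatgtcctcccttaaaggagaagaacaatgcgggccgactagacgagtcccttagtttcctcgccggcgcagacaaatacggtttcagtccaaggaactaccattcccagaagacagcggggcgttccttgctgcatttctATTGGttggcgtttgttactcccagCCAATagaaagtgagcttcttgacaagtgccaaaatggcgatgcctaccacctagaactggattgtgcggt
The MED19 window held 4 CCAAT boxes and 2 GC boxes, and the MED15 window held 2 ETS-type motifs and 2 GC boxes. The MED12 window held 1 GC box, and the MED24 window held 2 CCAAT boxes. Over the 25 member promoters, the GC box was present in 15 (45.0% of 35116 RefSeq promoters of the same length), the CCAAT box in 10 (34.6%), the ETS-type motif in 7 (10.3%), the YY1-type motif in 5 (2.89%), the E-box in 2 (7.26%), the TATA element in 2 (11.5%), the NRF1-type motif in 1 (3.05%) and the CRE in 1 (1.85%). A GC box was in 9 of 10 promoters of members called higher and in 3 of 5 of members called lower, and a CCAAT box was in 3 of 10 promoters of members called higher and in 3 of 5 of members called lower. The G and C content had a median of 60.5% in promoters of members called higher, 53.3% in those called lower and 58.7% over all promoters. For each member 1 entry was used, while the 35116 promoters were all entries, with no filter on expression. The MED15 and MED24 windows lie inside the gene spans given below, and any start further upstream was not shown. These are matches of letters in a short window, and no binding was measured here.

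In the head module, the part that meets the polymerase, ARV-825-treated cells had less MED22 and MED8 RNA and slightly more MED20 RNA, and the other tested genes did not pass the test on the deposited scale. Among the 6 head genes tested, 1 passed as higher and 2 as lower, 3 missed the threshold, and the median change was -0.03 on the log2 scale. In TPM 0 head genes passed as higher and all 6 as lower, with a median of -0.32. The whole-table shares were 37% higher and 40.2% lower on the deposited scale. In TPM they were 23.6% higher and 53.7% lower, with a median of -0.31 over all genes. MED22, which pairs with MED11 in the yeast head, had 5.42, 4.74 and 4.96 FPKM in ARV-825-treated cells, against 11.5, 12.0 and 11.7 FPKM in control cells (ENSG00000148297, chr9:133338323-133348131, minus strand). The groups were far apart, and the ARV-825 mean was 0.429 of the control mean (log2 fold change -1.08, SE 0.0524, adjusted p = 2.58e-06). MED22 rested on 515 to 571 fragments per ARV-825 library and 1493 to 1699 per control library. MED8, which in yeast tethers the MED18 and MED20 pair to the head, had 7.89, 7.75 and 7.45 FPKM in ARV-825-treated cells, against 12.8, 14.7 and 15.5 FPKM in control cells (ENSG00000159479, chr1:43383917-43389808, minus strand). Again no ARV-825 value reached a control value, and the ratio of the means was 0.537 (log2 fold change -0.82, SE 0.0696, adjusted p = 3.69e-05).

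MED20, the partner of MED18, had 9.62, 9.90 and 9.59 FPKM in ARV-825-treated cells, against 9.16, 8.72 and 8.65 FPKM in control cells. The groups did not overlap, but the gap was small (log2 fold change 0.12, SE 0.0396, adjusted p = 0.0257), and in TPM the log2 fold change was -0.17 with an adjusted p of 0.0156. MED18 had 6.90, 6.49 and 6.50 FPKM in ARV-825-treated cells, against 6.05, 6.27 and 6.18 FPKM in control cells, also without overlap, and did not pass (adjusted p = 0.092). MED6 and MED11 overlapped between the groups, with log2 fold changes of -0.08 (adjusted p = 0.424) and 0.02 (adjusted p = 0.843). In TPM the log2 fold change was -0.38 for MED6 (adjusted p = 0.0122), -0.27 for MED11 (adjusted p = 0.0315) and -0.20 for MED18 (adjusted p = 0.0136), each passing as lower. MED17, the central head subunit, averaged 0.621 ± 0.0771 FPKM in ARV-825-treated cells and 0.643 ± 0.121 FPKM in control cells (SD, n = 3 each) and was not tested. The exons of MED17 joined over all transcripts span 16610 bases, against 5142 bases for its longest coding transcript, and FPKM was computed on the joined exons, so the low level of MED17 depends on that length.

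The middle module held the largest increase of the complex, MED19, next to decreases of MED1 and MED9. Among its 9 genes, 3 passed as higher and 2 as lower, 4 missed the threshold, and the median change was 0.09 on the log2 scale. In TPM 1 passed as higher and 4 as lower, with a median of -0.15. For all genes tested the shares were 37% higher and 40.2% lower, and in TPM 23.6% higher and 53.7% lower. MED19, a middle subunit that takes part in recruitment by the repressor REST, had 18.6, 17.6 and 19.4 FPKM in ARV-825-treated cells, against 9.15, 8.73 and 9.82 FPKM in control cells (ENSG00000156603, chr11:57703714-57712323, minus strand). The ARV-825 mean was 2.01 times the control mean, with no overlap (log2 fold change 0.93, SE 0.0549, adjusted p = 6.07e-06). MED19 rested on 498 to 532 fragments per ARV-825 library and 282 to 372 per control library. MED26, the subunit that brings elongation factors to the core when the kinase module is absent, had 2.75, 2.60 and 2.10 FPKM in ARV-825-treated cells, against 1.87, 1.66 and 1.54 FPKM in control cells. MED26 had the lowest mean of the tested members over all 6 libraries, its highest control value lay below its lowest ARV-825 value, and it passed the test (log2 fold change 0.37, SE 0.0928, adjusted p = 0.0087), but not in TPM (adjusted p = 0.165). MED10 averaged 20.2 ± 0.473 FPKM in ARV-825-treated cells and 17.2 ± 0.631 FPKM in control cells (SD, n = 3 each, log2 fold change 0.22, SE 0.0404, adjusted p = 0.00205), and in TPM its log2 fold change was -0.08.

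MED1, which binds nuclear receptors and is often used as a mark of Mediator at enhancers, had 13.3, 13.6 and 13.0 FPKM in ARV-825-treated cells, against 18.1, 18.2 and 19.2 FPKM in control cells (ENSG00000125686, chr17:39404285-39451286, minus strand). Its values were tight within each group, and the ARV-825 mean was 0.718 of the control mean (log2 fold change -0.45, SE 0.0387, adjusted p = 3.91e-05). MED9, a small middle subunit, had 2.31, 2.46 and 2.84 FPKM in ARV-825-treated cells, against 3.41, 3.27 and 3.48 FPKM in control cells. All 3 ARV-825 values were below the control values (log2 fold change -0.31, SE 0.0688, adjusted p = 0.00463). MED4, MED7, MED21 and MED31 overlapped between the groups, with log2 fold changes of -0.12, 0.24, -0.03 and 0.09 and adjusted p of 0.0581 to 0.618. MED4 and MED21 passed as lower in TPM, at -0.42 for MED4 (adjusted p = 0.000944) and -0.33 for MED21 (adjusted p = 0.000954), and MED4 also with fragment totals and in voom. MED31 shares 58.3% of its exon bases with TXNDC17 on the opposite strand. TXNDC17 averaged 5.60 ± 0.349 FPKM in ARV-825-treated cells and 7.42 ± 0.304 FPKM in control cells (SD, n = 3 each, log2 fold change -0.35, adjusted p = 0.000862), and the library kit did not mark strand, so reads of the shared bases cannot be told apart.

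The scaffold gene MED14 had 6.73, 6.70 and 6.93 FPKM in ARV-825-treated cells, against 5.34, 5.09 and 5.37 FPKM in control cells (ENSG00000180182, chrX:40648306-40735858, minus strand). The groups did not overlap and the ARV-825 mean was 1.29 times the control mean (log2 fold change 0.31, SE 0.0415, adjusted p = 0.000367). In TPM, where the median of all genes was lower by 0.31, the log2 fold change of MED14 was 0.05 with an adjusted p of 0.421, so the call depended on the scaling.

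In the tail module, which receives activators, 8 of 9 genes passed the test, 5 higher and 3 lower, and the median log2 fold change was 0.28 on the deposited scale. In TPM 2 tail genes were higher and 4 lower, with a median of -0.02. The whole-table shares were 37% higher and 40.2% lower on the deposited scale, and 23.6% higher and 53.7% lower in TPM. With MED27 to MED30 counted in the head instead, 3 of the 5 remaining tail genes were higher and 2 lower with a median of 0.30, and the head then had 3 higher and 3 lower of 10 with a median of -0.03. MED15, whose KIX domain binds SREBP and other activators, had 12.8, 11.5 and 11.1 FPKM in ARV-825-treated cells, against 6.99, 6.77 and 6.61 FPKM in control cells (ENSG00000099917, chr22:20495913-20587632, plus strand). Every ARV-825 value exceeded every control value, by a ratio of means of 1.73 (log2 fold change 0.71, SE 0.0589, adjusted p = 3.14e-05). MED15 has near-identical pseudogene copies that could share its reads. MED15P9 averaged 9.28 ± 0.522 FPKM in ARV-825-treated cells and 3.28 ± 0.337 FPKM in control cells and MED15P8 6.59 ± 0.648 FPKM in ARV-825-treated cells and 2.32 ± 0.535 FPKM in control cells (SD, n = 3 each), with log2 fold changes of 1.27 (adjusted p = 5.07e-06) and 1.20 (adjusted p = 0.000117), and how reads were split among the copies was not tested. Of the 19 pseudogenes of Mediator genes in the table, 13 were listed at 0 in all 6 libraries and only MED15P9 and MED15P8 reached a mean of 1 FPKM.

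MED29, the counterpart of the fly intersex protein, had 11.2, 10.6 and 11.3 FPKM in ARV-825-treated cells, against 7.04, 7.98 and 7.12 FPKM in control cells. The groups were apart (log2 fold change 0.52, SE 0.0560, adjusted p = 0.000118). MED23, which is bound by the RAS-responsive factor ELK1, had 3.95, 5.01 and 4.74 FPKM in ARV-825-treated cells, against 3.23, 2.83 and 3.18 FPKM in control cells (log2 fold change 0.45, SE 0.0849, adjusted p = 0.00236). MED25, which binds the viral activator VP16, averaged 9.40 ± 0.436 FPKM in ARV-825-treated cells and 7.42 ± 0.0664 FPKM in control cells (SD, n = 3 each, log2 fold change 0.30, SE 0.0439, adjusted p = 0.000572), and MED27 averaged 21.3 ± 2.06 FPKM in ARV-825-treated cells and 17.4 ± 1.04 FPKM in control cells (SD, n = 3 each, log2 fold change 0.28, SE 0.0746, adjusted p = 0.0121). In TPM these calls were lost, at adjusted p of 0.0609 for MED23, 0.68 for MED25 and 0.848 for MED27.

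MED24, a tail subunit that lies beside MED16 and MED23, had 13.7, 12.1 and 11.3 FPKM in ARV-825-treated cells, against 17.0, 17.4 and 17.3 FPKM in control cells (ENSG00000008838, chr17:40019097-40061215, minus strand). Each ARV-825 value was below the lowest control value, and the ratio of means was 0.717 (log2 fold change -0.45, SE 0.0656, adjusted p = 0.000584). MED30, a subunit of animal Mediator with no yeast counterpart, had 52.4, 53.9 and 52.7 FPKM in ARV-825-treated cells, against 68.4, 72.8 and 75.1 FPKM in control cells. It was the most abundant member per length in every library and was lower in all 3 ARV-825 libraries (log2 fold change -0.44, SE 0.0418, adjusted p = 6.75e-05). MED16 averaged 25.1 ± 2.36 FPKM in ARV-825-treated cells and 30.2 ± 0.676 FPKM in control cells (SD, n = 3 each, log2 fold change -0.26, SE 0.0655, adjusted p = 0.00845). MED28 lay below control without overlap, at 4.56 ± 0.391 FPKM in ARV-825-treated cells and 5.03 ± 0.0396 FPKM in control cells (SD, n = 3 each), and did not pass (adjusted p = 0.112). MED28 passed as lower under 5 of the 21 alternative settings, TPM among them (-0.43, adjusted p = 0.000633). The summed FPKM of the tail was 153 ± 5.67 in ARV-825-treated cells and 167 ± 4.26 in control cells (SD, n = 3 each), and MED30 made the largest part of it.

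In the kinase module, ARV-825-treated cells had more MED13 and CDK19 RNA and less MED12 RNA. These 3 of the 6 genes tested passed, 2 as higher and 1 as lower, while 37% of the whole table passed as higher and 40.2% as lower. CDK8, CCNC and MED13L did not pass, and the median log2 fold change of the module was 0.12. In TPM the log2 fold changes of those that did not pass were -0.19 for CDK8, -0.17 for CCNC and -0.11 for MED13L, also without passing. CDK8, which phosphorylates transcription factors and the polymerase, had 7.21, 8.72 and 7.90 FPKM in ARV-825-treated cells, against 7.82, 7.22 and 6.95 FPKM in control cells. These values overlapped (log2 fold change 0.10, SE 0.0733, adjusted p = 0.244). CDK19, its paralog, had 4.26, 4.20 and 3.92 FPKM in ARV-825-treated cells, against 2.64, 1.96 and 2.38 FPKM in control cells (ENSG00000155111, chr6:110609978-110815958, minus strand). CDK19 was higher in all 3 ARV-825 libraries, at 1.77 times the control mean (log2 fold change 0.63, SE 0.0837, adjusted p = 0.000378), from 430 to 473 fragments per ARV-825 library and 253 to 360 per control library. CCNC, which encodes the cyclin of both kinases, had 6.47, 7.88 and 7.21 FPKM in ARV-825-treated cells, against 6.53, 7.19 and 5.99 FPKM in control cells, with overlap (log2 fold change 0.11, SE 0.0837, adjusted p = 0.255).

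MED12, which activates CDK8 with cyclin C, had 6.01, 6.09 and 5.76 FPKM in ARV-825-treated cells, against 9.36, 8.59 and 9.00 FPKM in control cells (ENSG00000184634, chrX:71118556-71142454, plus strand). The groups were well apart, and the ARV-825 mean was 0.663 of the control mean (log2 fold change -0.52, SE 0.0461, adjusted p = 4.43e-05). MED12L, its paralog, had 0.592, 0.590 and 0.531 FPKM in ARV-825-treated cells, against 0.959, 0.939 and 1.06 FPKM in control cells. MED12L was lower in every ARV-825 library, at 0.579 of the control mean, but fell under the level filter, and with the filter at a mean of 0.1 FPKM its log2 fold change was -0.34 (SE 0.0655, adjusted p = 0.00473, limma). It rested on 98 to 112 fragments per ARV-825 library and 204 to 270 per control library and shares 28.8% of its exon bases with IGSF10 on the opposite strand, which averaged 0.0676 ± 0.0226 FPKM in ARV-825-treated cells and 0.633 ± 0.0415 FPKM in control cells (SD, n = 3 each), and the part of IGSF10 reads in MED12L was not tested.

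MED13, the link between the kinase module and the core, had 11.7, 13.8 and 13.5 FPKM in ARV-825-treated cells, against 8.53, 8.45 and 8.35 FPKM in control cells (ENSG00000108510, chr17:61942605-62065282, minus strand). All ARV-825 values were above the control values (log2 fold change 0.57, SE 0.0626, adjusted p = 0.000139). MED13L, its paralog, had 2.38, 2.60 and 2.60 FPKM in ARV-825-treated cells, against 2.20, 2.21 and 2.23 FPKM in control cells. MED13L was above control without overlap, by a small margin that did not pass (log2 fold change 0.13, SE 0.0556, adjusted p = 0.0647).

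The balance of each paralog pair was then compared within a library, where the scaling of the library cancels. The ratio of CDK8 to CDK19 FPKM was 1.69, 2.08 and 2.01 in ARV-825-treated cells, against 2.97, 3.68 and 2.92 in control cells. CDK8 stayed the more abundant kinase per length in all 6 libraries, but by less after ARV-825, with a difference of -0.72 in the mean log2 ratio (0.94 ± 0.159 in ARV-825-treated cells and 1.66 ± 0.187 in control cells, SD, n = 3 each). The ratio of MED13 to MED13L was 4.94, 5.33 and 5.20 in ARV-825-treated cells, against 3.87, 3.82 and 3.74 in control cells (difference in mean log2 ratio 0.43). The ratio of MED12 to MED12L was 10.2, 10.3 and 10.9 in ARV-825-treated cells, against 9.76, 9.15 and 8.49 in control cells (difference in mean log2 ratio 0.20). The size of a ratio depends on the exon lengths used, as for MED13L, whose joined exons span 37364 bases against 14615 bases for its longest coding transcript, but its change between groups does not. None of the 3 pairs overlapped between the groups, and each gave p = 0.1 in the two-sided exact permutation test, which is the smallest p that 3 against 3 allows, so none can pass 0.05, before or after adjustment over the 3 pairs. Among single genes, 38.5% of all tested lay above control and 41.6% below without overlap. Ratios of other gene pairs were not tested, so the separation cannot be called particular to these pairs.

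**Figure D3:**
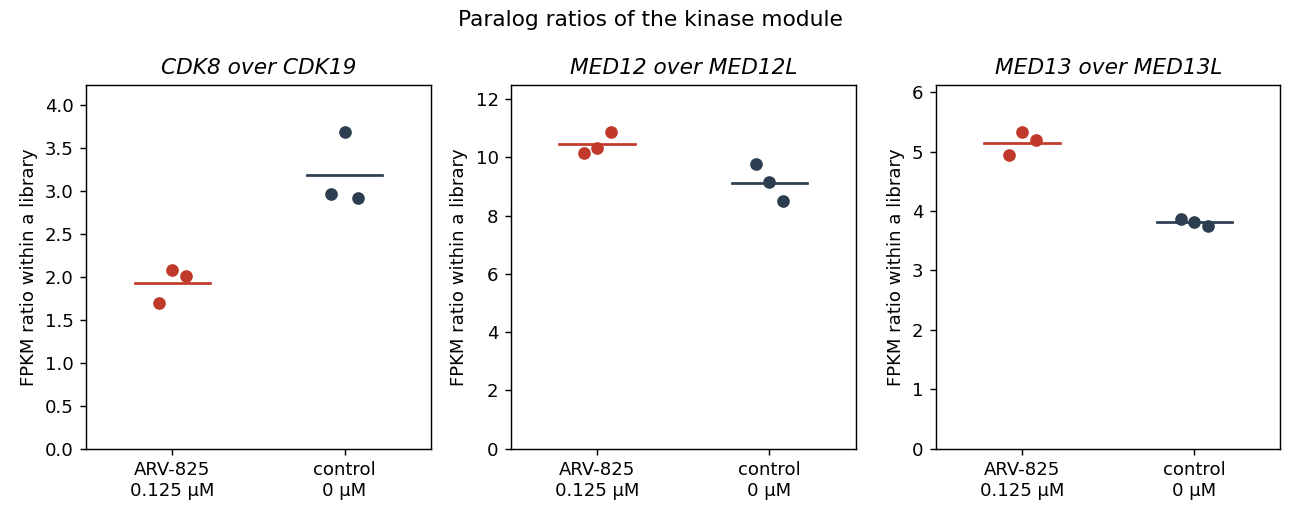
Ratio of FPKM between paralogs of the kinase module in each library, with ARV-825 (left) and control (right), 3 libraries each, and the group mean as a line. CDK8 over CDK19 lies at 1.69 to 2.08 in ARV-825-treated cells and 2.92 to 3.68 in control cells, and MED13 over MED13L at 4.94 to 5.33 in ARV-825-treated cells and 3.74 to 3.87 in control cells.

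Although single subunits moved, the summed level of the core did not separate the groups on the deposited scale. The 15 genes of the head, the middle without MED1 and MED26, and MED14 summed to 107.9, 109.8 and 111.6 FPKM in ARV-825-treated cells, against 106.9, 110.2 and 110.4 FPKM in control cells. The overlap holds for FPKM as deposited, and with equal FPKM sums the core sum was 99.1 ± 0.944 in ARV-825-treated cells and 122 ± 2.99 in control cells (SD, n = 3 each), without overlap. By module, the head summed to 37.9 ± 0.726 FPKM in ARV-825-treated cells and 50.2 ± 1.71 FPKM in control cells, the middle to 80.8 ± 2.10 FPKM in ARV-825-treated cells and 73.9 ± 0.654 FPKM in control cells, and the kinase module to 41.3 ± 2.63 FPKM in ARV-825-treated cells and 36.9 ± 1.07 FPKM in control cells (SD, n = 3 each). With libraries brought to equal FPKM sums, the middle was at 73.0 ± 0.633 in ARV-825-treated cells and 82.8 ± 1.47 in control cells, and the kinase module at 37.3 ± 1.78 in ARV-825-treated cells and 41.3 ± 1.49 in control cells (SD, n = 3 each), so the order of the groups turned for both. The head stayed lower, at 34.3 ± 1.31 in ARV-825-treated cells and 56.3 ± 2.34 in control cells. On the deposited scale, MED22 averaged 5.04 FPKM in ARV-825-treated and 11.7 FPKM in control cells, and MED8 7.70 and 14.3 FPKM. The other head genes had smaller differences, in both directions. In the middle, MED19 averaged 18.5 FPKM in ARV-825-treated and 9.23 FPKM in control cells, while MED1 went the other way, at 13.3 and 18.5 FPKM.

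The ratio of each member to the core sum of its own library does not depend on how libraries are scaled. Of all 33 members, 14 had ratios above control in every ARV-825 library (38% of all genes tested, set against the same sum), 10 below (41.5% of all genes tested) and 9 overlapped. The mean log2 ratio of MED22 to the core sum differed most on the lower side, by -1.23, followed by MED8 at -0.90, MED12L at -0.80 and MED12 at -0.60. MED19 differed most on the higher side, by 1.00, followed by CDK19 at 0.83, MED15 at 0.78, MED13 at 0.61 and MED29 at 0.57. MED22, MED8 and MED19 are themselves in the core sum, and the other genes named here are not.

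The members had little in common by position, and lie on 15 chromosomes. Across the 31 tested members, Spearman's rho with the log2 fold change was -0.41 for the control mean FPKM, 0.33 for the length of the gene and 0.15 for the joined exon length. These values describe 31 genes measured in the same 6 libraries, and the control mean is also part of the fold change. In 7 members opposite-strand genes cover in sum over 10% of the exon bases, and in MED26 and MED17 same-strand genes do. The 2 largest same-strand neighbours of MED26, which share 27.2% and 13.2% of its exon bases, stayed at a mean of at most 0.0435 FPKM in each group. Its 2 opposite-strand neighbours share 8.14% and 3.71% of its exon bases. They averaged 1.31 and 0.666 FPKM in ARV-825-treated cells and 0.655 and 0.255 FPKM in control cells. The part of their reads in MED26 was not tested. The number of fragments behind a member in a library ran between 62 for MED31 and 2842 for MED1, and the smallest numbers, with the largest counting error, belonged to MED31, MED11 and MED12L.

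The general transcription factors that assemble with Mediator at promoters were set beside it, as a list of 33 genes of TFIIA, TFIIB, TFIID, TFIIE, TFIIF and TFIIH. On the deposited scale 21 of the 32 tested rose (65.6%, against 37% in the whole table), 3 fell (9.38%, against 40.2%) and 8 missed the threshold. The median log2 fold change was 0.21. In TPM the list had 9 higher and 13 lower, so its direction flipped with the scaling, while its median stayed 0.19 to 0.25 above that of all genes under the deposited and 7 other scalings. For the tested Mediator genes the same margin was 0.11 to 0.15. Past both thresholds, 3 of the list were higher (8.81% of all genes tested) and 1 was lower (12.1%), and in TPM 0 were higher (limma, with 9 higher without the size threshold) and 1 lower.

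TAF9, a histone-fold subunit of TFIID, had 70.3, 77.2 and 81.5 FPKM in ARV-825-treated cells, against 35.3, 33.6 and 34.6 FPKM in control cells (log2 fold change 1.12, SE 0.0572, adjusted p = 3.18e-06). The groups were far apart, but 20.6% of the TAF9 exon bases are shared with a gene on the same strand, so reads of those bases cannot be told apart from reads of that gene. GTF2B, which encodes TFIIB and places the polymerase on the promoter, had 14.7, 14.3 and 17.1 FPKM in ARV-825-treated cells, against 7.25, 6.40 and 6.28 FPKM in control cells (log2 fold change 1.10, SE 0.0804, adjusted p = 1.75e-05). TAF7, the TFIID subunit that restrains TAF1, had 62.6, 68.7 and 69.4 FPKM in ARV-825-treated cells, against 31.1, 31.5 and 30.9 FPKM in control cells (log2 fold change 1.08, SE 0.0461, adjusted p = 1.56e-06). Each of these 3 increases exceeded that of MED19. TAF5, a WD40-repeat subunit of TFIID, had 1.57, 1.12 and 1.42 FPKM in ARV-825-treated cells, against 4.81, 5.46 and 4.81 FPKM in control cells, the largest decrease in the list (log2 fold change -1.35, SE 0.0886, adjusted p = 1.01e-05). TAF9B, the paralog of TAF9, had 6.51, 7.70 and 6.73 FPKM in ARV-825-treated cells, against 9.71, 9.22 and 9.50 FPKM in control cells (log2 fold change -0.40, SE 0.0627, adjusted p = 0.000935), and GTF2E2, the small subunit of TFIIE, had 11.1, 11.3 and 11.6 FPKM in ARV-825-treated cells, against 13.2, 12.7 and 13.1 FPKM in control cells (log2 fold change -0.19, SE 0.0365, adjusted p = 0.00262). TAF5, TAF9B and GTF2E2 were the only genes of the list called lower on the deposited scale, and all 6 of these genes kept their direction and call under each of the 21 alternative settings.

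By factor, 10 of 16 TFIID genes were higher and 2 lower on the deposited scale, and 4 higher and 8 lower in TPM. In TFIIH, 7 of 9 tested genes were higher on the deposited scale, and 3 higher and 1 lower in TPM. For the whole table the shares were 37% higher and 40.2% lower on the deposited scale, and 23.6% higher and 53.7% lower in TPM. The remaining TFIIH genes, GTF2H2 at -0.27 and ERCC2 at 0.16 on the log2 scale, did not pass (adjusted p = 0.075 for GTF2H2 and adjusted p = 0.0537 for ERCC2, limma). In TPM GTF2H2 passed as lower (-0.63, adjusted p = 0.00883) and ERCC2 was at -0.13 (adjusted p = 0.154). The kinase part of TFIIH, which phosphorylates the polymerase tail while Mediator stimulates it, is made of CDK7, cyclin H and MNAT1. CDK7 averaged 17.6 ± 1.30 FPKM in ARV-825-treated cells and 11.4 ± 0.793 FPKM in control cells, CCNH 9.88 ± 0.446 FPKM in ARV-825-treated cells and 5.89 ± 0.166 FPKM in control cells and MNAT1 7.61 ± 0.704 FPKM in ARV-825-treated cells and 5.64 ± 0.225 FPKM in control cells (SD, n = 3 each). Their log2 fold changes were 0.58, 0.66 and 0.37, with adjusted p of 0.000187, 1.45e-05 and 0.00184 (limma). In TPM the log2 fold changes were 0.31 for CDK7 (adjusted p = 0.00431), 0.42 for CCNH (adjusted p = 0.000131) and 0.11 for MNAT1, which no longer passed (adjusted p = 0.200).

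**Figure D4:**
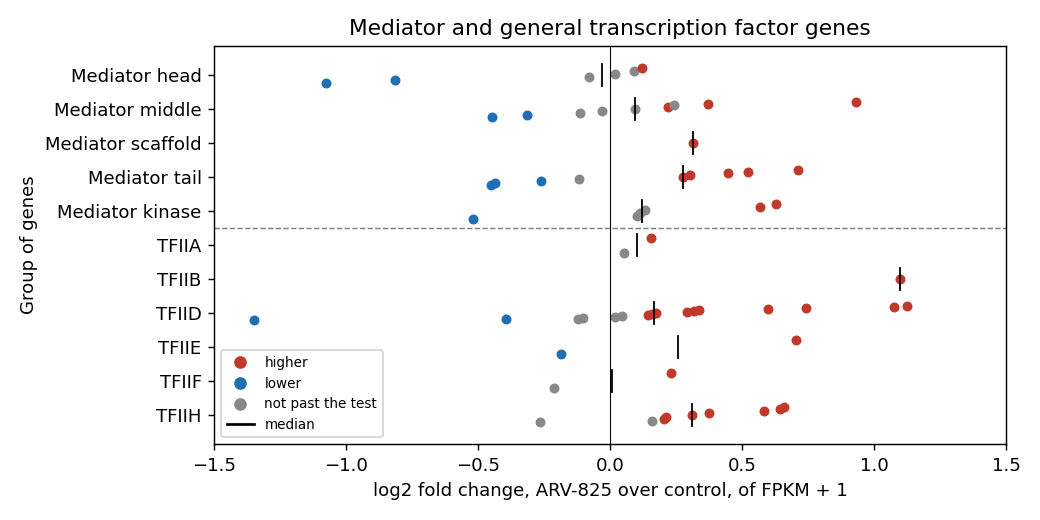
Log2 fold change (ARV-825 over control, on log2(FPKM + 1)) of the tested Mediator genes by module and of the tested general transcription factor genes by factor, 1 point per gene, with the group median as a line. The medians are -0.03 for the head, 0.28 for the tail, 0.17 for TFIID and 0.31 for TFIIH on the deposited scale, and points lie on both sides of 0 in the head, middle, tail, kinase module and TFIID.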

How the data were processed

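All 6 libraries were made with an Illumina TruSeq kit that does not mark strand. The deposited table holds FPKM values made by the authors from HISAT2 2.0.5 alignments, and no counter is named in the sources used here. The submitters' processing notes name mm10, but the IDs are human, and 58207 of 58735 had a gene symbol. The exon lengths of GENCODE 29 returned whole fragments for 100% of values (within 0.05). FPKM were tested as log2(FPKM + 1) with limma 3.58.1 in R 4.3.3 (trend, Benjamini-Hochberg) for the 13442 genes with a mean of at least 1 FPKM. Adding 1 shrinks the fold changes of genes with few FPKM. The fit was tested on simulated data in which few genes changed, up and down alike, so the choice of scaling was not tested there. Per-library values were given for the 2 largest increases and decreases past the test in the head, middle and tail, for MED14, MED1, MED26 and all kinase module genes, and for the 3 largest in each direction of the general transcription factors. MED18 and MED23 were added after their values were seen. The members and lists were chosen with earlier results of these data known. There were 21 alternative settings. Depth limits precision, and counting error is part of the spread between libraries. Promoters are RefSeq, GRCh38.p14, and 8 members without an entry were MED6, MED8, MED13, MED14, MED21, MED22, MED28 and MED30.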

Additional observations from a re-analysis of the deposited data

How the results depend on the processing

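MED19, MED15, MED29, MED13 and CDK19 stayed higher, and MED8, MED22, MED1, MED9, MED16, MED24, MED30 and MED12 lower, past the threshold under all 21 alternatives, and 12 of the 31 tested members changed sign under at least 1. The causes of these changes were not tested. Of the 11 members that did not pass, MED6, MED11, MED4, MED21 and MED28 passed as lower under at least 1 alternative, MED7 and MED13L as higher, and MED18 as higher under 2 and lower under 2. The 12 members higher became 5 in TPM and 5 with equal FPKM sums, and the 8 lower became 15 and 15. TPM and equal FPKM sums divide by the same library sums and differ only in the weight of the added 1. The 1 member past both thresholds became 2 in TPM, 2 with equal FPKM sums, 2 at a pseudocount of 0.01 and 2 after quantile normalization. In TPM and with equal FPKM sums, the log2 fold changes turned to -0.27 and -0.23 for MED11, -0.20 and -0.18 for MED18, -0.17 and -0.16 for MED20, -0.000915 and -0.000649 for MED7, -0.0798 and -0.0771 for MED10, -0.15 and -0.12 for MED31, -0.0206 and -0.0198 for MED27, -0.11 and -0.0871 for MED13L, -0.19 and -0.17 for CDK8, and -0.17 and -0.16 for CCNC. MED11 was also -0.0518 with fragment totals, -0.0053 without mitochondrial genes and -0.0638 with voom, and MED21 was 0.0507 after quantile normalization. Leaving out 1 library at a time gave 11 to 14 members higher, 8 to 9 lower and 1 to 1 past both thresholds, and MED6 ran between -0.14 and 0.0057, MED11 between -0.0513 and 0.0591 and MED21 between -0.0639 and 0.0230.

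The alternatives for the general transcription factors, the paralog ratios, the module sums and the ratios to the core sum were added after seeing the data. The 21 general transcription factor genes higher became 9 in TPM and 9 with equal FPKM sums, and the 3 lower became 13 in TPM, 13 with equal FPKM sums, 7 with fragment totals, 5 with protein-coding genes alone and 7 with voom. Without 1 library, 16 to 20 were higher and 3 to 4 lower, the CDK8 over CDK19 difference was -0.78 to -0.62, the MED12 over MED12L difference 0.14 to 0.24, the MED13 over MED13L difference 0.41 to 0.47, and 14 to 15 members lay above and 10 to 11 below control relative to the core sum. With 0.1 added to both values, the MED12 over MED12L difference was 0.11 in place of 0.20. Same-numbered libraries of the 2 groups correlated at 0.00421, 0.0414 and 0.0378, and differently numbered libraries at -0.04025 to 0.001595. Correlations this weak cannot decide whether the numbers pair the libraries. With a replicate block, 12 members were higher, 8 lower and 1 past both thresholds, but MED20 lost its call (adjusted p = 0.0671) and MED7 gained one (adjusted p = 0.0347).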
